A study of Homo sapiens with 6 samples.

Results

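RNA carries many chemical marks beyond the m6A that METTL3 deposits on messenger RNA, and the enzymes that place or remove these other marks are the genes described here. They were picked by symbol alone: the numbered METTL, NSUN, TRMT, PUS and ALKBH families, together with PCIF1, CMTR1, CMTR2, RNMT, NOP2, DKC1, FBL, TRDMT1, ADARB1, ZCCHC4 and TRMT112, and without METTL3, METTL14 and ALKBH5. Of the 57781 rows of the count table, 77 met this rule. Expression was measured by RNA sequencing of total RNA, extracted with TRIzol, from A549, a human lung adenocarcinoma cell line, grown in DMEM with fetal bovine serum. One group of 3 libraries carried the empty vector and is labelled WT, and the other group of 3 libraries carried short hairpin RNA against METTL3 (shMETTL3) and is labelled METTL3 knockdown. The hairpins were expressed from a plasmid, and the time from transfection to harvest is not given in the sources used here. The shMETTL3 columns are numbered sh1 to sh3, so their spread also holds any difference between hairpins if more than 1 was used. Nothing in the labels says that the libraries came from separate cultures, and the p-values therefore measure only the spread between these libraries, which may be technical.

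The families differ in chemistry and in substrate. Methyltransferases of the METTL, NSUN and TRMT families take a methyl group from S-adenosylmethionine and place it on a base or a ribose, mostly in tRNA, rRNA, snRNA or the mRNA cap, although some METTL proteins methylate proteins instead. Pseudouridine synthases turn uridine around its bond to the sugar, ADAR enzymes deaminate adenosine to inosine in double-stranded RNA, and AlkB dioxygenases remove alkyl groups by oxidation. Several of these enzymes work only in a complex: TRMT112 is a shared activating subunit of METTL5 and of other methyltransferases, WDR4 is the partner of METTL1, and DKC1 and FBL are the catalytic subunits of small nucleolar ribonucleoproteins.

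Library totals lay between 14931426 and 19108928 counts, so that 3 counts in a library equalled 0.15 to 0.189 CPM (the count relative to the library total, here scaled by edgeR's TMM factors). METTL3 itself stood at 49.4, 50.6 and 49.5 CPM in the vector libraries and at 18.9, 19.9 and 19.3 CPM in the shMETTL3 libraries, a fall to 38.8% of the vector level (log2 fold change -1.36, SE 0.0673, adjusted p = 4.57e-16, quasi-likelihood test of edgeR, adjusted by Benjamini-Hochberg). The 8 epithelial and A549 marker genes summed to 29551 to 30960 CPM in vector and to 19802 to 20416 CPM in shMETTL3. Of these markers 7 fell, to between 15% (EPCAM) and 67.1% (AKR1B10) of the vector level, and AKR1C2 rose to 164%. The 4 leukocyte markers summed to at most 0.981 CPM in vector and to 5.84 to 6.74 CPM in shMETTL3, nearly all of it CD14, while CD3E had 0 counts in every library. The 2 endothelial markers used summed to at most 0.123 and to 1.4 to 1.89 CPM, with VWF at 0 throughout, and the 3 fibroblast markers to 4.01 to 6.74 and to 10.3 to 11.1 CPM. The part of these marker differences in the results was not tested. In bulk RNA, fewer cells of a type and less RNA per cell cannot be told apart.

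Of the 77 genes, 65 had enough counts to be tested, and 40 of these (61.5%) were called at an adjusted p under 0.05, against 66.6% of all 15125 genes tested. The called genes were 23 that rose, against a background of 33.7% of all genes tested, and 17 that fell, against 32.9%, while 25 did not pass the test. Values of the 3 vector and the 3 shMETTL3 libraries did not overlap for 44 of the 65 genes (67.7%), against 69.4% of all genes tested. Both shares lay close to the background of this comparison. The sizes of the changes were moderate: the median absolute log2 fold change was 0.272, against 0.406 over all genes tested, and 4 of the 65 genes (6.15%) differed by a log2 fold change of at least 1, against 17.7% of all. The median log2 fold change was 0.0619, against 0.00218 over all genes.

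**Figure D1:**
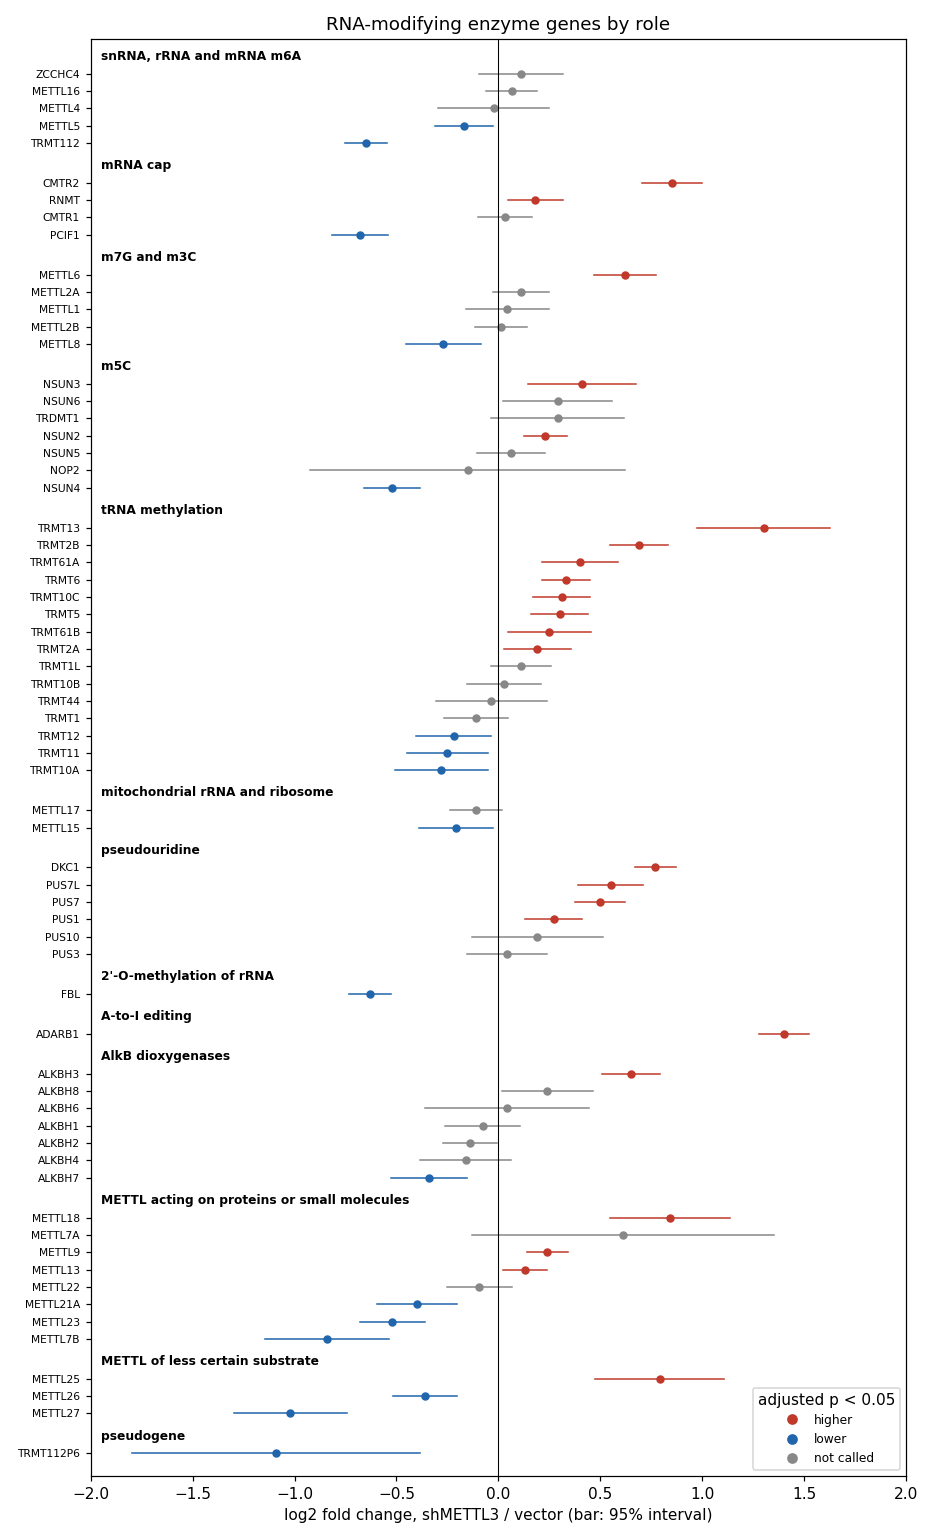
The log2 fold change (shMETTL3 over vector) of the 65 tested genes, with 95% intervals as bars, grouped by role; red marks genes called higher, blue genes called lower and grey genes not called. Most roles hold changes of both signs, the 6 pseudouridine synthase genes lie at or above 0, and ADARB1 (1.40) and TRMT13 (1.30) lie farthest to the right.

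Scaling mattered for genes with small differences. The TMM factors were between 0.92 and 0.953 in vector and between 1.05 and 1.07 in shMETTL3, and scaling by library size alone raised the median of all genes by 0.17 on the log2 scale. Under that scaling all 23 genes that rose stayed above 0 and 16 of the 17 that fell stayed below 0, METTL5 being the exception, but 8 genes in place of 17 passed the test as lower and 33 in place of 23 as higher. Without shMETTL3 replicate 2, 11 genes passed as lower. Calls and directions of 25 of the 40 genes held under all 12 alternatives tried. These were TRMT112, CMTR2, PCIF1, METTL6, NSUN2, NSUN4, TRMT13, TRMT2B, TRMT61A, TRMT6, TRMT10C, TRMT5, DKC1, PUS7L, PUS7, PUS1, FBL, ADARB1, ALKBH3, METTL7B, METTL18, METTL23, METTL9, METTL27 and METTL25.

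Of the 5 genes for m6A outside the METTL3 complex, 2 fell and 3 did not pass the test, a called share of 40% against 66.6% of all genes. METTL16, which methylates U6 snRNA and hairpins in the MAT2A messenger, showed no difference that passed the test. Its level was 51.5, 55.1 and 58.2 CPM in vector and 53.7, 62.1 and 56.3 CPM in shMETTL3, with overlapping groups (log2 fold change 0.0644, SE 0.0644, 95% interval -0.06 to 0.19, adjusted p = 0.386). It lies at chr17:2308856-2415185 on the minus strand of GRCh37. METTL4, linked to m6Am in U2 snRNA, stood at 8.86, 7.78 and 6.31 CPM and at 8.75, 7.13 and 6.68 CPM (log2 fold change -0.0237, SE 0.138, adjusted p = 0.889). ZCCHC4, the 28S rRNA m6A methyltransferase, stood at 9.42, 9.64 and 9.99 CPM and at 10.8, 10 and 10.6 CPM. Its groups did not overlap, but the difference did not pass the test (log2 fold change 0.11, SE 0.106, adjusted p = 0.36).

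METTL16 recognises a 9-base sequence that recurs in the 3′ untranslated region of MAT2A, the gene of the enzyme that makes S-adenosylmethionine. The copies are shown as the known binding sites of a member of the set; whether they bear on the level of MAT2A was not tested. Read from GRCh37 along the GENCODE transcript, 5′ to 3′ in DNA letters, with the 9 bases in capitals, the 5 copies in MAT2A are as follows.
MAT2A copy at chr2:85770925-85770953, plus strand: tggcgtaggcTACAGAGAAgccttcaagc
MAT2A copy at chr2:85771712-85771740, plus strand: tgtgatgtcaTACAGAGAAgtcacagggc
MAT2A copy at chr2:85771897-85771925, plus strand: ctggtgtagcTACAGAGAAaccagcttcc
MAT2A copy at chr2:85772012-85772040, plus strand: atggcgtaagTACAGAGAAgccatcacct
MAT2A copy at chr2:85772235-85772263, plus strand: gctggtgtggTACAGAGAAgccagcttgt
The 5 copies lie 44, 831, 1016, 1131 and 1354 bases past the end of the coding sequence. TACAGAGAA occurs on the sense strand of 502 of the 12465 canonical transcripts searched (4.03%). MAT2A stood at 415, 416 and 409 CPM in vector and at 951, 955 and 936 CPM in shMETTL3, or 229% of the vector level (log2 fold change 1.20, SE 0.0481, adjusted p = 5.41e-18). Within each library, MAT2A had 8.07, 7.55 and 7.03 counts for every METTL16 count in vector and 17.7, 15.4 and 16.6 in shMETTL3. Under scaling by library size alone, METTL16 was called higher as well (log2 fold change 0.24, adjusted p = 1.76e-03, edgeR).

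METTL5, which places m6A on 18S rRNA, and its activator TRMT112 were unlike in size. TRMT112, at chr11:64083932-64085031 on the minus strand, fell from 155, 166 and 172 CPM to 103, 103 and 109 CPM, or 63.7% of the vector level (log2 fold change -0.65, SE 0.0533, adjusted p = 2.48e-11). METTL5 stood at 32.3, 32 and 28.6 CPM in vector and at 28.7, 26 and 28 CPM in shMETTL3. It was called lower (log2 fold change -0.17, SE 0.0729, adjusted p = 0.0419), but its groups overlapped by a narrow margin, it kept its call under 5 of 12 alternatives, and with library size alone its log2 fold change was 0.00391. The 3 vector libraries held 0.208, 0.193 and 0.167 METTL5 counts per TRMT112 count and the 3 shMETTL3 libraries 0.278, 0.254 and 0.258, a ratio that needs no scaling between libraries. Exons of ESRRA on the opposite strand cover 25.8% of the TRMT112 exon bases, and those of SSB cover 20% of METTL5, and whether the counting used strand is not given in the sources used here.

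Other partners of TRMT112 were read from the list of partner genes. BUD23, the 18S rRNA m7G methyltransferase, fell (log2 fold change -0.50), whereas N6AMT1 (0.57), a protein methyltransferase, and THUMPD3 (0.32), a tRNA methyltransferase, rose. Of the partners in the set, METTL5 and TRMT11 were called lower (-0.17 and -0.25) and ALKBH8 was not called (0.24).

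Among the enzymes of the mRNA cap, 2 rose, 1 fell and 1 did not pass the test, a called share of 75% against 66.6% of all genes. CMTR2, which methylates the ribose of the second transcribed nucleotide, rose from 21, 19.3 and 18 CPM to 36, 35.2 and 33.8 CPM (log2 fold change 0.85, SE 0.0748, adjusted p = 1.08e-10). CMTR1, which acts on the first transcribed nucleotide, stood at 41.1, 35.3 and 38.7 CPM and at 37.5, 40.6 and 39.6 CPM (log2 fold change 0.0312, 95% interval -0.10 to 0.16, adjusted p = 0.701). Counts of CMTR2 per CMTR1 count went from 0.511, 0.548 and 0.465 in vector to 0.961, 0.867 and 0.854 in shMETTL3. Per exon length, CMTR2 remained below CMTR1 in both groups, at 2.57 against 7.27 RPKM (CPM divided by the exon length in kilobases) in vector and 4.62 against 7.44 RPKM in shMETTL3.

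PCIF1, the cap-specific adenosine methyltransferase that makes m6Am, fell from 41.2, 43.1 and 48 CPM to 28.3, 27.2 and 27.2 CPM, or 62.5% of the vector level (log2 fold change -0.68, SE 0.0698, adjusted p = 2.38e-09). RNMT, the guanine-7 cap methyltransferase, moved the other way and by less. It stood at 37.2, 36.7 and 35.4 CPM in vector and at 45.2, 38.6 and 39.5 CPM in shMETTL3 (log2 fold change 0.18, SE 0.069, adjusted p = 0.0272), and kept its call under 7 of 12 alternatives. Its activating subunit RAMAC rose as well (log2 fold change 0.53). CMTR2 lies at chr16:71315292-71323618 on the minus strand and PCIF1 at chr20:44563322-44576662 on the plus strand of GRCh37.

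**Figure D2:**
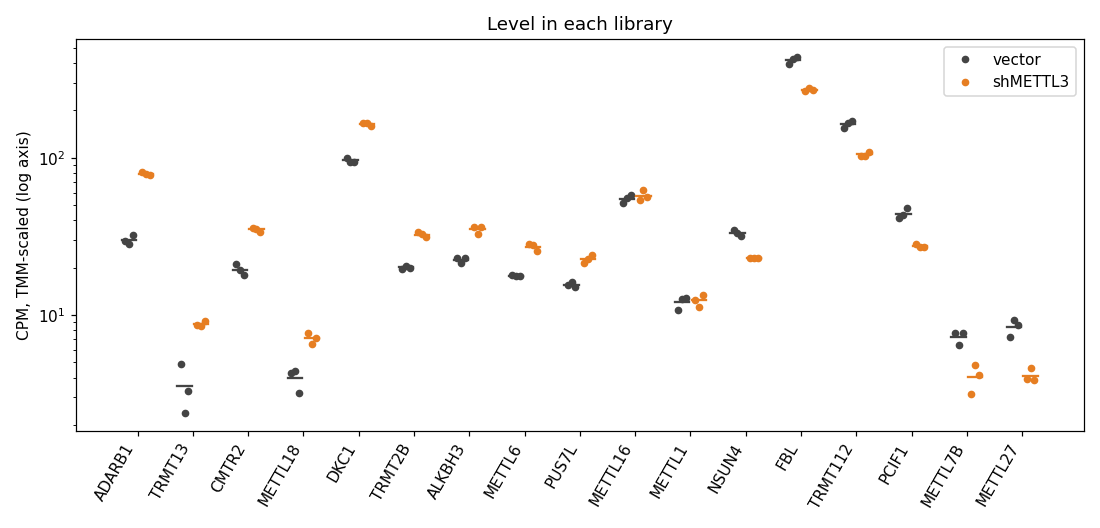
TMM-scaled CPM (log axis) of 17 of the genes in each of the 3 vector libraries (grey) and 3 shMETTL3 libraries (orange), with the group mean as a short line. In ADARB1, TRMT13 and CMTR2 all orange points lie above all grey points, in FBL, TRMT112 and PCIF1 below them, and in METTL16 and METTL1 the groups overlap.

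METTL1, the m7G methyltransferase of tRNA, showed no detectable difference, while its obligate partner fell. METTL1 stood at 10.7, 12.6 and 12.9 CPM in vector and at 12.5, 11.3 and 13.5 CPM in shMETTL3 (log2 fold change 0.0442, SE 0.105, 95% interval -0.16 to 0.25, adjusted p = 0.723). WDR4 went from 15.3, 13.1 and 15.6 CPM to 7.72, 6.28 and 7.37 CPM, or 48.5% of the vector level (log2 fold change -1.05, SE 0.113, adjusted p = 5.4e-09). Each vector library held at least 1.04 WDR4 counts per METTL1 count, and each shMETTL3 library at most 0.616.

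The m3C methyltransferases differed among themselves. METTL6, which acts on serine tRNAs, rose from 18, 17.7 and 17.6 CPM to 28.4, 27.8 and 25.4 CPM (log2 fold change 0.62, SE 0.077, adjusted p = 7.31e-08). METTL8, the mitochondrial m3C enzyme, fell from 16.7, 18.6 and 15.8 CPM to 14, 15.1 and 13 CPM (log2 fold change -0.27, SE 0.0929, adjusted p = 0.012; called under 9 of 12 alternatives). The METTL6 to METTL8 count ratio went from 1.05 ± 0.0867 in vector to 1.94 ± 0.0977 in shMETTL3 (SD, n = 3), without overlap. Per exon length, METTL6 was the higher of the 2 genes in both groups, at 2.55 against 1.45 RPKM in vector and 3.9 against 1.2 RPKM in shMETTL3.

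METTL2A and METTL2B, near-identical copies that place m3C on threonine and arginine tRNAs, did not pass the test. METTL2A stood at 28.4, 27.4 and 26.7 CPM and at 30.3, 28.4 and 30.2 CPM (adjusted p = 0.188), and METTL2B at 40.1, 44.4 and 39.3 CPM and at 41.6, 40.5 and 42.8 CPM (adjusted p = 0.871, both from edgeR's quasi-likelihood test). Their coding sequences, 1134 bases each in GENCODE, differ at 15 bases (98.7% identity), and the longest run without a difference is 331 bases. Reads from such runs cannot be assigned to either copy, so the split of counts between the 2 genes is uncertain. A stretch with 3 of the differences, in capitals, at coding bases 312 to 371 and on the plus strand of GRCh37, shows how alike the copies are.
METTL2A, chr17:60503769-60503828: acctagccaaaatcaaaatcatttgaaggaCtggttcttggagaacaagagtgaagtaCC
METTL2B, chr7:128119321-128119380: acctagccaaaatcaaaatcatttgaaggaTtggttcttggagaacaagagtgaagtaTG
Values of METTL2B counts per METTL2A count overlapped between the groups (1.41 to 1.62 in vector and 1.37 to 1.43 in shMETTL3).

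Of 8 m5C methyltransferase genes, 7 were tested, 2 rose and 1 fell, a called share of 42.9% against 66.6% of all genes. NSUN2, which places m5C on many tRNAs and also acts on mRNA, rose from 125, 128 and 118 CPM to 139, 153 and 144 CPM (log2 fold change 0.23, SE 0.0536, adjusted p = 3.96e-04). The 2 mitochondrial members went in opposite directions. NSUN4, which acts on mitochondrial rRNA, fell from 34.5, 33.1 and 31.9 CPM to 23.1, 23 and 23.2 CPM (log2 fold change -0.52, SE 0.0701, adjusted p = 2.34e-07). NSUN3, which modifies mitochondrial methionine tRNA, stood at 6.8, 6.28 and 5.58 CPM and at 8.23, 7.13 and 9.64 CPM and rose (log2 fold change 0.41, SE 0.136, adjusted p = 9.75e-03; called under 11 of 12 alternatives). NSUN3 had 0.187 ± 0.0113 counts per NSUN4 count in vector and 0.361 ± 0.0529 in shMETTL3 (SD, n = 3).

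The remaining m5C genes showed no call. TRDMT1 (also known as DNMT2), which methylates aspartate tRNA, stood at 4.85, 3.59 and 3.25 CPM and at 4.71, 5.19 and 4.41 CPM (log2 fold change 0.29, SE 0.167, adjusted p = 0.128). NSUN6 (0.29, adjusted p = 0.0646) and the 28S rRNA enzyme NSUN5 (0.0619, adjusted p = 0.532) did not pass edgeR's test either. NOP2, a nucleolar 28S rRNA methyltransferase, was listed with only 14, 11 and 12 counts in vector and 8, 12 and 16 in shMETTL3 (log2 fold change -0.15, SE 0.394, adjusted p = 0.756). In the GENCODE annotation used here, 54.4% of the NOP2 exon bases are overlapped on the same strand by ENSG00000285238. Counting with htseq can leave out reads that fall on more than 1 gene, but the annotation used for the counting is not given. The part of this overlap in the NOP2 counts was not tested, and they are not read here as the level of this gene. NSUN7 was not tested, with 6, 0 and 2 counts in vector and 10, 9 and 6 in shMETTL3.

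The tRNA methylation group was the largest, with 15 genes, of which 8 rose, 3 fell and 4 did not pass the test (median log2 fold change 0.19, against 0.00218 over all genes). The share called was 73.3%, against 66.6% of all genes (33.7% higher and 32.9% lower). TRMT13, a ribose methyltransferase of the tRNA acceptor stem, at chr1:100598706-100616052 on the plus strand, went from 4.85, 2.39 and 3.31 CPM to 8.6, 8.48 and 9.2 CPM. These values were 249% of the vector level (log2 fold change 1.30, SE 0.167, adjusted p = 1.21e-07), with a range of 1.08 to 1.61 over the alternatives. The vector libraries spread more than the shMETTL3 libraries, with 87, 40 and 54 counts, and LRRC39 on the opposite strand covers 13.1% of the exon bases.

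TRMT2B, the mitochondrial 5-methyluridine enzyme, rose from 19.7, 20.5 and 20 CPM to 33.5, 32.5 and 31.3 CPM (log2 fold change 0.69, SE 0.0719, adjusted p = 2.49e-09). TRMT61A, the catalytic subunit of the tRNA m1A58 methyltransferase, rose from 13.5, 13.9 and 14.7 CPM to 21.1, 17.5 and 17 CPM (log2 fold change 0.40, SE 0.094, adjusted p = 4.65e-04). TRMT6, its partner subunit, rose in a like measure, from 48.1, 47.9 and 44.1 CPM to 60.4, 57.3 and 57.9 CPM (log2 fold change 0.33, SE 0.0599, adjusted p = 2.84e-05). The count ratio of TRMT61A to TRMT6 was 0.302 ± 0.0281 in vector and 0.316 ± 0.0291 in shMETTL3 (SD, n = 3), with overlapping groups. In contrast to METTL1 and WDR4, both subunits of this enzyme were therefore higher.

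Smaller rises were called for TRMT10C (log2 fold change 0.31, adjusted p = 4.22e-04), the methyltransferase subunit of mitochondrial RNase P, and for TRMT5 (0.30, adjusted p = 6.11e-04), which methylates guanosine 37. Those of TRMT61B (0.25, adjusted p = 0.0397) and TRMT2A (0.19, adjusted p = 0.049) kept their call under 5 and 4 of 12 alternatives. HSD17B10, another subunit of mitochondrial RNase P, was higher too (log2 fold change 0.37), but lies on chromosome X, whose tested genes had a median of 0.74. The falls were all small: TRMT10A (-0.28, adjusted p = 0.0347), a guanosine 9 methyltransferase, TRMT11 (-0.25, adjusted p = 0.0341), a catalytic subunit that works with TRMT112, and TRMT12 (-0.22, adjusted p = 0.0396), an enzyme of wybutosine synthesis. They kept their call under 5, 6 and 5 of the 12 alternatives to this test of edgeR. TRMT1 (-0.11), TRMT1L (0.11), TRMT10B (0.0274) and TRMT44 (-0.036) were not called.

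In the mitochondrial ribosome, METTL15, the m4C methyltransferase of the small subunit rRNA, was lower at 16.7, 15.4 and 14.8 CPM in vector and 12.6, 13.8 and 14.3 CPM in shMETTL3 (log2 fold change -0.21, adjusted p = 0.044). It kept its call under 4 of 12 alternatives. METTL17, an assembly factor of the same subunit, did not pass the test (log2 fold change -0.11, adjusted p = 0.133, edgeR). Among the mitochondrial rRNA enzymes outside the named families, TFB1M, which dimethylates adenines of the small subunit rRNA, fell from 23.8, 27.1 and 22.1 CPM to 10, 10.3 and 10.5 CPM (log2 fold change -1.25, SE 0.0921, adjusted p = 2.81e-12). Other annotated genes cover 38.7% of its exon bases, 14.4% on the same strand.

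Of the 6 pseudouridine synthase genes, 4 rose, none fell, and 2 did not pass the test (median log2 fold change 0.39). The share called, 66.7%, was close to the 66.6% of all genes, of which 33.7% were higher and 32.9% lower. DKC1, the catalytic subunit (dyskerin) of H/ACA particles, which pseudouridylate rRNA and snRNA, rose from 100, 94 and 94.5 CPM to 167, 167 and 160 CPM, or 171% of the vector level (log2 fold change 0.77, SE 0.0518, adjusted p = 3.62e-13). PUS7L rose from 15.5, 16.1 and 15.1 CPM to 21.5, 22.8 and 24.2 CPM (log2 fold change 0.55, SE 0.0819, adjusted p = 1.34e-06). PUS7, its paralogue and a synthase of tRNA and mRNA, rose from 33.3, 34.9 and 33.9 CPM to 49.4, 47.1 and 48 CPM (log2 fold change 0.50, SE 0.0625, adjusted p = 6.85e-08). In all 3 genes every shMETTL3 library lay above every vector library. PUS1, which acts on tRNA and mRNA, rose less (0.27, adjusted p = 1.28e-03), and PUS3 (0.0435, adjusted p = 0.716) and PUS10 (0.19, adjusted p = 0.305) were not called by edgeR. The other 7 pseudouridine synthase genes, of the TRUB, RPUSD and PUSL families, divided evenly, with 2 that rose, 2 that fell and 3 not called.

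DKC1 (chrX:153991017-154005964, plus strand) and TRMT2B (chrX:100264335-100307105, minus strand) are the 2 tested genes of the set on chromosome X. The 447 tested genes of that chromosome had a median log2 fold change of 0.74 with quartiles of 0.46 and 1.20, 365 of them called higher and 25 lower. The 13212 tested genes of the numbered chromosomes had a median of -0.00357. The values of DKC1 (0.77) and TRMT2B (0.69) thus lay near the middle of their chromosome, and its part in them was not tested.

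Genes for core proteins of the same small nucleolar particle differed in direction, in a comparison where 33.7% of all genes were called higher and 32.9% lower. In the H/ACA particle, GAR1 was higher (log2 fold change 0.50, adjusted p = 3.84e-07), like DKC1, whereas NHP2 (-0.82, adjusted p = 1.22e-10) and NOP10 (-0.48, adjusted p = 3.23e-06) were lower by edgeR's test. NHP2 had 0.556, 0.658 and 0.711 counts per DKC1 count in vector and 0.191, 0.209 and 0.239 in shMETTL3.

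FBL (fibrillarin), the catalytic subunit of the C/D particles that place 2′-O-methyl groups on rRNA, was the most abundant gene of the set per exon length, at 196 RPKM in vector. It fell from 394, 423 and 439 CPM to 266, 278 and 269 CPM, or 64.7% of the vector level (log2 fold change -0.63, SE 0.0514, adjusted p = 2.4e-11). FBL lies at chr19:40325098-40337019 on the minus strand. Of its C/D partners, NOP58 (0.68, adjusted p = 6.43e-11) and NOP56 (0.59, adjusted p = 2.43e-11) rose, and SNU13 (-0.37, adjusted p = 2.12e-06), which C/D particles share with the spliceosome, fell. FBL had 7.12, 8.29 and 8.9 counts per NOP58 count in vector and 3.1, 3.48 and 3.19 in shMETTL3. Between the catalytic subunits of the particles, the FBL to DKC1 ratio went from 4.36 ± 0.377 to 1.65 ± 0.0498 (SD, n = 3), the groups lying far apart relative to their spread. This ratio also holds the rise of DKC1, a gene of chromosome X, whose tested genes had a median log2 fold change of 0.74. The part of the chromosome in the ratio was not tested.

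**Figure D3:**
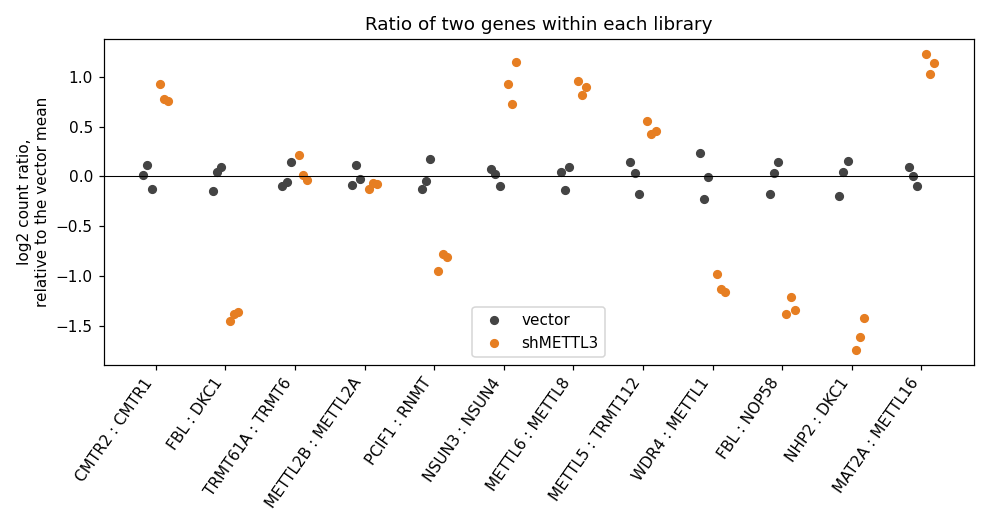
Ratio of the counts of 2 genes within each library, on a log2 scale relative to the vector mean, for 12 pairs; grey points are the 3 vector and orange points the 3 shMETTL3 libraries. Ratios of FBL to DKC1, WDR4 to METTL1 and NHP2 to DKC1 fell well below all vector points, while those of TRMT61A to TRMT6 and METTL2B to METTL2A overlap them. DKC1 lies on chromosome X, whose tested genes had a median log2 fold change of 0.74.

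The 12 ratios plotted were chosen after the values of the genes were seen and are given as descriptions without a test. They do not depend on how libraries are scaled to each other. In 10 of them the 2 groups did not overlap. No share over other gene pairs was computed, and 69.4% of all single genes tested did not overlap in CPM. The count of 10 is therefore not a result about these pairs.

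ADARB1, which encodes the adenosine deaminase ADAR2, had the largest log2 fold change of the 65 genes. It rose from 29.7, 28.4 and 32.1 CPM to 81, 79 and 77.3 CPM, or 263% of the vector level (log2 fold change 1.40, SE 0.062, adjusted p = 4.31e-17). The gene lies at chr21:46493768-46646475 on the plus strand. Over the alternatives its log2 fold change lay between 1.35 and 1.57. The size was not extreme for this comparison, since 1009 genes that were called higher had a larger log2 fold change. ADAR, the more abundant editing enzyme, stood at 297, 288 and 295 CPM in vector and at 334, 329 and 338 CPM in shMETTL3, a rise of 0.19 on the log2 scale (SE 0.0479, adjusted p = 1.19e-03). Per exon length, ADARB1 went from 2.92 to 7.68 RPKM and ADAR from 23.9 to 27.3 RPKM. ADARB1 therefore remained the lower of the pair in both groups.

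Of the 7 AlkB dioxygenase genes, 1 rose, 1 fell and 5 did not pass the test, a called share of 28.6% against 66.6% of all genes. ALKBH3, which removes m1A and m3C from RNA and repairs alkylated DNA, rose from 23, 21.4 and 22.9 CPM to 36.3, 32.6 and 36.5 CPM (log2 fold change 0.65, SE 0.0732, adjusted p = 1.35e-08). ALKBH7, a mitochondrial protein, fell from 16.7, 16.9 and 17 CPM to 14.6, 11.6 and 13.9 CPM (log2 fold change -0.34, SE 0.0947, adjusted p = 2.69e-03; called under 11 of 12 alternatives). ALKBH1, which acts on m1A and m5C of tRNA, ALKBH2, a DNA repair enzyme, ALKBH4 and ALKBH6 had log2 fold changes between -0.16 and 0.0412. ALKBH8, the tRNA wobble uridine enzyme, was at 0.24 (adjusted p = 0.0629, edgeR's quasi-likelihood test). ALKBH2 and ALKBH8 were among 7 of the 25 uncalled genes of the set whose groups did not overlap. Over all genes tested, called or not, 69.4% did not overlap.

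Of 10 METTL genes whose known targets are proteins or small molecules, 8 were tested, 3 rose and 3 fell, a called share of 75% against 66.6% of all genes (33.7% higher and 32.9% lower). METTL7B, a thiol methyltransferase, fell from 7.63, 6.4 and 7.72 CPM to 3.16, 4.84 and 4.16 CPM (log2 fold change -0.84, SE 0.155, adjusted p = 3e-05). METTL18, a histidine methyltransferase of ribosomal protein RPL3, rose from 4.29, 4.43 and 3.19 CPM to 7.72, 6.53 and 7.12 CPM (log2 fold change 0.84, SE 0.15, adjusted p = 1.93e-05). METTL23, an arginine methyltransferase, fell from 26.2, 30.6 and 26.8 CPM to 20.9, 18 and 19.4 CPM (log2 fold change -0.52, SE 0.0816, adjusted p = 2.88e-06). Each of these 3 genes had groups that did not overlap.

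METTL21A (-0.40, adjusted p = 1.14e-03), a lysine methyltransferase of heat shock proteins, fell, and METTL9 (0.24, adjusted p = 1.6e-04), a histidine methyltransferase, and METTL13 (0.13, adjusted p = 0.0373), which methylates elongation factor eEF1A, rose. METTL13 kept its call under 6 of the 12 alternatives to this test of edgeR. METTL22 (-0.0949, adjusted p = 0.311) was not called, and neither was METTL7A, the paralogue of METTL7B. METTL7A had 12, 7 and 10 counts in vector and 13, 19 and 16 in shMETTL3 (log2 fold change 0.61, SE 0.377, adjusted p = 0.154), so that a difference of this size was not detectable at this depth.

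The 3 tested METTL genes of less certain substrate were called, where 66.6% of all genes were. METTL27 fell from 7.3, 9.34 and 8.64 CPM to 3.94, 4.59 and 3.84 CPM, or 48.9% of the vector level (log2 fold change -1.02, SE 0.142, adjusted p = 4.45e-07). METTL26 fell from 28.1, 25.9 and 29.1 CPM to 20.4, 20.3 and 24.4 CPM (log2 fold change -0.36, SE 0.0811, adjusted p = 3.38e-04; called under 11 of 12 alternatives). METTL25 rose from 3.29, 3.59 and 2.64 CPM to 5.59, 5.59 and 5.23 CPM (log2 fold change 0.79, SE 0.161, adjusted p = 1.09e-04). METTL27 had the largest fall among the protein-coding genes of the set, and 1085 genes that were called lower fell further.

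The symbol rule also took in 9 rows outside these roles, TRMT9B and 8 pseudogenes of TRMT112 and TRMT10B. The TRMT112 copies P1 to P5 and P7 and TRMT10BP1 had 0 counts in every library, as did METTL11B, METTL21C and METTL24. For each of these, a count of 0 allows up to 3 counts, or 0.15 to 0.189 CPM, by counting error only. TRMT9B had 1, 0 and 0 counts in vector and 3, 0 and 3 in shMETTL3, at or under that floor. TRMT112P6 had 16, 25 and 26 counts in vector and 17, 8 and 9 in shMETTL3 and was called lower (log2 fold change -1.09, SE 0.36, adjusted p = 9.01e-03, under 10 of the 11 alternatives in which it was tested). It matches the TRMT112 coding sequence at 356 of 372 aligned bases (95.7%) with a run of 141 identical bases, so that its counts cannot be separated with certainty from those of TRMT112, which fell as well.

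The other RNA modification genes show the setting of these values. Of 74 genes listed as partners or as further enzymes, 73 were tested, 27 rose, 21 fell and 25 were not called, or 65.8% called against 66.6% of all genes. All 15 partner and cofactor genes were called, 8 higher and 7 lower, where 33.7% of all genes were higher and 32.9% lower. These lists were written by hand with earlier results of these data known, so the shares called in them are descriptions only. In the S-adenosylmethionine cycle, MAT2A was higher (1.20), while MAT2B (-0.47), its regulatory subunit, and AHCY (-0.70), which clears S-adenosylhomocysteine, were lower on the log2 scale. Of the further tRNA modification genes, 18 of 37 were called, 10 higher and 8 lower, and of the further rRNA modification genes 8 of 9, 5 higher and 3 lower. NAT10, the acetyltransferase of rRNA and tRNA cytidine, stood at 91.8, 87.6 and 100 CPM and at 104, 110 and 102 CPM and rose (log2 fold change 0.18, SE 0.0567, adjusted p = 7.96e-03). LARP7, which binds 7SK and U6 snRNA, rose from 15.5, 12 and 14.6 CPM to 21.8, 23.7 and 25 CPM (log2 fold change 0.74, SE 0.0924, adjusted p = 7e-08), the second largest rise of these lists after MAT2A. Of the tested cap and editing genes of these lists, ADAR and LARP7 included, 3 of 5 were called.

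Transcript length is given as a description, without a test. The canonical GENCODE transcripts of the 23 genes that rose had a median of 3153 bases, those of 16 that fell 1321 bases and those of the 25 not called 2797 bases. Over all genes with such a transcript, the medians were 3832 bases for 4572 genes that rose, 3091 for 4207 that fell and 3308 for 3686 not called. The order was the same in both, with a wider gap within the set. The shortest transcripts were those of METTL26 (797 bases), TRMT112 (812) and METTL27 (922), all 3 of which fell. Of the longest, PUS7L (13567 bases) rose, TRDMT1 (12918) was not called and METTL8 (9770) fell. The part of transcript length in the values was not tested.

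**Figure D4:**
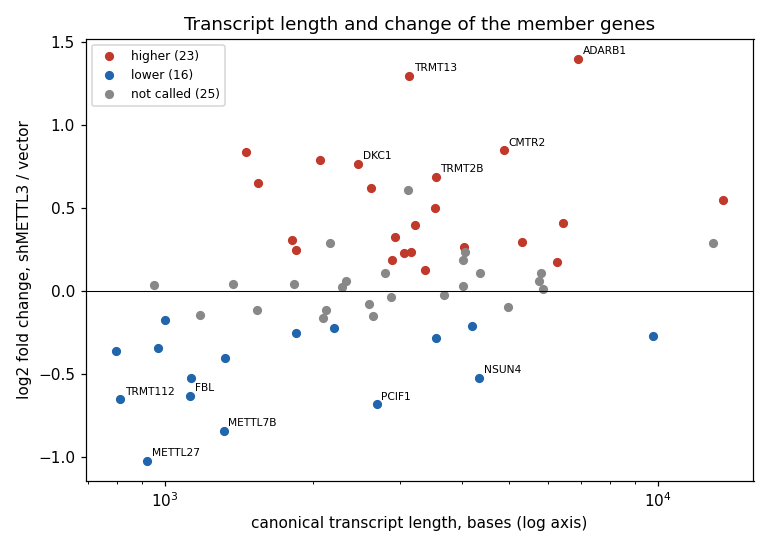
Log2 fold change (shMETTL3 over vector) against canonical transcript length in bases (log axis) for 64 of the tested genes, coloured by call. The 16 genes called lower include most of the shortest transcripts, and ADARB1 combines a long transcript with the largest rise.

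GGACT, a common form of the sequence in which METTL3 places m6A, was searched on the sense strand of the same transcripts. At least 1 copy was present in 58 of 64 genes of the set (90.6%), against 91.9% of all 12465 transcripts, and its median density was 0.905 per kilobase against 0.922. A copy within 100 bases of the end of the coding sequence, where m6A is often found, was present in 11 of the 64 (17.2%), against 23% of all. It was present in 1 of 23 genes that rose (METTL13), in 3 of 16 that fell (METTL8, METTL21A and PCIF1) and in 7 of 25 not called. These are 4.35%, 18.8% and 28%, where the shares over all genes that rose, fell or were not called were 21.9%, 24.8% and 22.4%. The copies of the called genes nearest to that end, with GGACT in capitals and 10 bases on each side, are shown because they are the ones in the set that pair a changed transcript with this position.
METTL13, chr1:171765926-171765950, plus strand, 3′ untranslated: gactgaccttGGACTcccagcctgc
METTL8, chr2:172180636-172180660, minus strand, 3′ untranslated: caaagccagaGGACTgtgctattca
METTL21A, chr2:208477765-208477789, minus strand, coding: accagaaggaGGACTtataattggc
PCIF1, chr20:44576336-44576360, plus strand, coding: ccaaggaccgGGACTcgggccgtga
The match is a description of letters in the reference, since methylation was not measured in these libraries.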

How the data were processed

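The authors mapped reads to hg19 (GRCh37) with HISAT2, counted them per gene with htseq and deposited whole-number counts for 57781 rows named by symbol, without normalization. The submitters' processing notes name cutadapt 3.0, HISAT2 2.2.1, SAMtools 1.13 and HTSeq 0.13.5, while the paper's methods give other versions of the last-named counter and of the aligner. The annotation and strand setting of the counting are not given in the sources used here. The titles gave groups and replicate numbers, and 0 columns were left unused.

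From these counts, edgeR 4.0.16 in R 4.3.3 was run on the whole table with TMM scaling, filterByExpr, estimateDisp, glmQLFit and glmQLFTest on the group alone, and p-values were adjusted by Benjamini-Hochberg over the 15125 genes tested. SEs come from the fold change and its F statistic. The scripts were tested on simulated data. Library totals were 14931426 to 19108928 counts; chi-square per degree of freedom within groups was 2.64 to 6.9, so that no libraries were alike within sampling noise. Alternatives were DESeq2 1.42.0, a replicate block, RLE scaling, scaling by library size alone, omission of the filter, a minimum of 10 counts per library, and omission of each library in turn.

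The genes and lists were chosen with earlier results of these data known. In each role group, up to 3 called genes with the largest absolute log2 fold change are given in full, and METTL16, METTL5, TRMT112, ZCCHC4, METTL4, PCIF1, METTL1, NSUN2, NOP2, FBL, DKC1, ADARB1, TRDMT1, METTL2A, METTL2B and METTL8 whatever their values. Of the other lists, the 2 largest rises and falls and WDR4, MAT2A, ADAR and NAT10 are given. Further genes of those lists, TRMT6 and the count ratios were added after their values were seen. Positions, exons and sequences came from the GENCODE annotation and the GRCh37 genome; 38489 symbols matched.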

Additional observations from a re-analysis of the deposited data

How the results depend on the processing

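Scaling by library size alone moved the number of genes called lower from 17 to 8 and the median log2 fold change of the 65 genes from 0.0619 to 0.24. Over all genes, it moved the share of calls that were higher from 50.6% to 65.8%. Requiring at least 10 counts in every library gave 11 genes called lower. Leaving out each library in turn gave 11 to 17, with the lowest value without shMETTL3 replicate 2, and medians of 0.0464 to 0.0899. The causes were not tested. Over these settings, 31 (DESeq2) to 41 genes (library size alone) were called in place of 40, and 9076 to 10648 of all genes. METTL3 was lower under all 12 alternatives.

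In all, 10 genes changed sign under library size alone, 9 of them uncalled in the main test: ALKBH1 (0.099), ALKBH2 (0.0382), ALKBH4 (0.0144), METTL17 (0.0612), METTL22 (0.0797), METTL4 (0.15), NOP2 (0.027), TRMT1 (0.0619) and TRMT44 (0.14), and the called METTL5 (0.00391). Under the same scaling 10 genes became called higher: ALKBH8, CMTR1, METTL16, METTL2A, METTL2B, NSUN5, NSUN6, TRDMT1, TRMT1L and ZCCHC4. ALKBH8 also became so with at least 10 counts (0.26) or without vector replicate 2 (0.30), NSUN6 without vector (0.35) or shMETTL3 (0.37) replicate 3, and TRDMT1 without vector replicate 1 (0.48). When single libraries were omitted, the log2 fold changes of 11 uncalled genes crossed 0: ALKBH1 (-0.16 to 0.0414), ALKBH6 (-0.11 to 0.2), CMTR1 (-0.0325 to 0.0786), METTL1 (-0.0447 to 0.11), METTL2B (-0.0263 to 0.0613), METTL4 (-0.15 to 0.0917), NOP2 (-0.51 to 0.11), NSUN5 (-0.028 to 0.15), PUS3 (-0.0553 to 0.14), TRMT10B (-0.00629 to 0.0606) and TRMT44 (-0.16 to 0.0773).

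Replicate numbers do not pair the samples, since deviations of same-numbered libraries correlated at 0.0516, -0.00663 and 0.0333. A replicate block gave 40 called genes of the set, 23 higher and 17 lower, and changed none of their calls; over all genes it gave 10111 calls in place of 10067. With few counts, METTL7A is limited by depth.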
